A study of Mus musculus with 16 samples.

Results

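The loci of the Runx family and of Cbfb carried 383 of the 193303 binding peaks that were called for RUNX1, MyoD, c-Jun and MyoG in mouse muscle cells. The 383 were the peaks that overlapped 4 windows of the mouse build mm9 by at least 1 bp. The Runx1 window (chromosome 16 from 92550000 to 93100000, with the gene's upstream desert side) held 203 peaks, the Runx2 window (chromosome 17 from 44580000 to 45000000) 97, the Runx3 window (chromosome 4 from 134620000 to 134790000) 57 and the Cbfb window (chromosome 8 from 107650000 to 107790000) 26. The windows were chosen by gene and not from peak values, but with results of these data known.

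RUNX proteins bind DNA through a runt domain, and CBFB is their shared partner, which does not contact DNA itself and raises the affinity of RUNX for its site. RUNX1 is best known from blood formation, RUNX2 from bone formation and RUNX3 from T cells and sensory neurons. In skeletal muscle, RUNX1 is known to be induced after injury and loss of innervation. RUNX genes are usually read from a distal and a proximal promoter, and RUNX proteins are known to bind their own genes.

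Chromatin immunoprecipitation and sequencing (ChIP-seq) was done on primary cells grown from satellite cells of the gastrocnemius of wild-type C57BL/6 mice aged 2 to 3 weeks. RUNX1, MyoD (a helix-loop-helix factor that sets the muscle lineage) and c-Jun (a subunit of AP-1) were immunoprecipitated from myoblasts that were still dividing, cultured for 3 days. MyoG (the helix-loop-helix factor myogenin) was immunoprecipitated from cells kept for a further 24 h in differentiation medium. The 16 samples were 8 groups of 2, with a ChIP group per factor, a non-immune serum group for RUNX1 and IgG groups for MyoD, c-Jun and MyoG. The labels call the replicates of a factor biological, but the data used here hold 1 list of peaks for each factor. No value below therefore has a spread between cultures, and no test between groups was possible. The list under an abbreviated name was taken as MyoG by elimination, and MyoG differs from the other factors in cell stage as well.

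A sequence feature shared by the 3 Runx genes is shown first, because RUNX1 itself was one of the mapped factors. RefSeq promoter windows of the build GRCm38.p6, from 250 bases before to 50 after an annotated start, held 2 starts for Runx1, 1 for Runx2, 2 for Runx3 and 1 for Cbfb, so all 4 genes matched. The RUNX motif TGTGGT was searched on both strands. On the strand shown it reads ACCACA, marked in capitals in these 30-base stretches at the Runx2 start and at the more upstream starts of Runx1 and Runx3:
Runx1, chr16:92826025-92826054, minus strand, bases 21 to 50 of the transcript: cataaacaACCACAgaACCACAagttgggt
Runx2, chr17:44814583-44814612, minus strand, bases 16 to 45 of the transcript: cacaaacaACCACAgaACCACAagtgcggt
Runx3, chr4:135120503-135120532, plus strand, bases -142 to -113 from the start: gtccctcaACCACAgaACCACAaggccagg
All 3 stretches held the same 18-base run, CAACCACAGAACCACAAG, with a pair of RUNX motifs 2 bases apart. That run was present in 4 of 32851 promoter windows, 0.0122%, those of Runx1, Runx2 and Runx3 and that of Gm16225, a noncoding gene beside Runx3 whose window overlaps that of Runx3. The pair in general, TGTGGT repeated in the same orientation with any 2 bases between, searched on both strands, was present in 7 windows (0.0213%), the other 3 being those of Gm15462, Olfr24 and Gm12236. A single TGTGGT was present in 16.8% of windows. The pair and the run were picked after the sequences were seen. The pair begins at base 29 of the transcript in Runx1 and at base 24 in Runx2, and lies upstream of the start in Runx3. A further single motif lay from -80 to -75 in Runx2. The other RUNX form searched, TGCGGT, was found in Runx2 from base 40 to base 45 and in no other of the 6 windows, against 6.45% of all windows. The more downstream starts of Runx1 and Runx3 and the Cbfb start held neither RUNX form.

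The E-box letters CANNTG, the core that helix-loop-helix factors such as MyoD and MyoG bind, were present in 72.3% of all promoter windows and differed between the Runx1 starts. The 250 bases before the upstream start of Runx1 held 3, marked in capitals, and those before the downstream start held 0:
Runx1 upstream start, chr16:92826075-92826324, minus strand: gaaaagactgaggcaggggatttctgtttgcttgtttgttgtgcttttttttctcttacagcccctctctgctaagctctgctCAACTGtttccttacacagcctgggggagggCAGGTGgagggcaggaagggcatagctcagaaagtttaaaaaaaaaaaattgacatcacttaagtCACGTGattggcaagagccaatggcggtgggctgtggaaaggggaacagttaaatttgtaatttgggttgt
Runx1 downstream start, chr16:92697330-92697579, minus strand: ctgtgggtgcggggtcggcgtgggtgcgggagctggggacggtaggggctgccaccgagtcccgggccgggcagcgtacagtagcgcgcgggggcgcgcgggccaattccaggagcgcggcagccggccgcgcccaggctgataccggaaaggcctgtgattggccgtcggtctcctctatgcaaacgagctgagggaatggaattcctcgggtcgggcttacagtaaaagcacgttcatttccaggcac
The 250 bases before the upstream start of Runx1 were 45.6% G or C, and those before the downstream start 67.6%. CAGGTG, an E-box form present in 20.2% of all windows, was found at the upstream starts of Runx1 (-136 to -131) and Runx3 (-233 to -228). CAGCTG (16.3% of all windows) and the AP-1 letters TGANTCA (7.81%) were in none of the 6 windows. These are letter matches, which say nothing of binding.

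The sequences above are placed on GRCm38 and the peaks on mm9. Positions of the builds are not interchangeable, and no position was carried from one to the other. Which peak covers which promoter, exon or intron was therefore not analysed here, and the assignment of a window to a gene rests on the given windows. In the same RefSeq table, each Runx gene had a Clic gene (a family of chloride intracellular channel proteins) as a protein-coding neighbour: Clic6 beside Runx1, Clic5 beside Runx2 and Clic4 beside Runx3. Supt3, a subunit of a histone acetyltransferase complex, overlapped Runx2, so peaks of the Runx2 window can lie in either gene. The neighbours of Cbfb, a gene of 47.3 kb, were Ces4a, 20.6 kb away, and D230025D16Rik, 7.16 kb away. The Cbfb window of 140 kb is longer than the gene with both gaps. Its peaks can therefore lie in or near other genes too.

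Peaks of all 4 factors were denser at the Runx1 locus than on average over chromosome 16. The window held 48 RUNX1, 47 MyoD, 42 c-Jun and 66 MyoG peaks. For RUNX1 this was 87.3 peaks per Mb against 14.6 over the chromosome, a ratio of 5.99 (exact 95% Clopper-Pearson interval 4.44 to 7.90). The ratio was 4.93 for MyoD (3.63 to 6.52), 4.83 for c-Jun (3.49 to 6.50) and 5.23 for MyoG (4.06 to 6.62). The intervals cover the counting of peaks only. Peaks cluster along the genome, so they are too narrow as a measure of how loci vary.

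As the background, each chromosome was cut into consecutive tiles of the window's length, gene deserts included. None of 178 tiles of chromosome 16 (0%) held as many RUNX1, MyoD or c-Jun peaks as the Runx1 window, and the median tile held 4, 7 and 6. The fullest tiles held 43 RUNX1, 43 MyoD and 35 c-Jun peaks. For MyoG, 1 tile (0.562%) held as many. The tiles include those that share part of the window. Counted over the stronger 50% of each list, the ratios were 7.5 for c-Jun, 6.98 for RUNX1, 5.47 for MyoG and 5.21 for MyoD. The order of the factors at Runx1 thus depended on which peaks were counted. Against only those 100 kb tiles that held any peak, the 4 ratios were 4.07 for RUNX1, 3.34 for MyoD, 3.28 for c-Jun and 3.55 for MyoG.

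At the Runx3 locus RUNX1 had the highest ratio of the 4 factors. The 18 RUNX1 peaks gave a ratio of 5.93 (3.52 to 9.35) over the mean of chromosome 4, and 1.2% of 915 tiles held as many. The 18 MyoG peaks gave 4.15 (2.46 to 6.55, 4.15% of tiles), the 12 MyoD peaks 3.90 (2.02 to 6.80, 4.59% of tiles) and the 9 c-Jun peaks 3.28 (1.5 to 6.21, 8.09% of tiles). These 4 intervals overlap, and differences between the factors were not tested. Against occupied tiles alone the Runx3 ratios were 3.85 for RUNX1, 2.70 for MyoG, 2.53 for MyoD and 2.13 for c-Jun. Over the stronger 50% of each list they were 7 for RUNX1, 5.34 for MyoG, 3.76 for MyoD and 4.42 for c-Jun, so the order of MyoD and c-Jun depended on which peaks were counted.

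At the Runx2 locus the order of the factors was another. c-Jun had the highest ratio, 3.66 (2.44 to 5.27) from 28 peaks, and 0.885% of 226 tiles of chromosome 17 held as many. MyoD followed at 2.85 (1.85 to 4.20) from 25 peaks, with 6.19% of tiles. RUNX1, at 2.23 (1.36 to 3.43) from 20 peaks, and MyoG, at 1.96 (1.26 to 2.91) from 24 peaks, were closer to the chromosome's mean, with 14.6% and 16.8% of tiles holding as many. The 4 intervals overlap here too, and differences between the factors were not tested. Against occupied tiles alone the Runx2 ratios were 2.58 for c-Jun, 2.01 for MyoD, 1.57 for RUNX1 and 1.38 for MyoG. Over the stronger 50% of each list they were 3.75 for c-Jun, 2.87 for MyoD, 2.21 for MyoG and 2.01 for RUNX1. The order of RUNX1 and MyoG thus depended on which peaks were counted.

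At the Cbfb locus no list had a ratio above 2.70 when all peaks were counted, and c-Jun had its lowest ratio of the 4 loci. Its 7 RUNX1 peaks gave a ratio of 2.70 (1.09 to 5.56), its 7 MyoD peaks 2.70 (1.09 to 5.56), its 9 MyoG peaks 2.45 (1.12 to 4.65) and its 3 c-Jun peaks 1.28 (0.263 to 3.72) over the mean of chromosome 8. Between 13.5% (MyoD) and 35.2% (c-Jun) of 940 tiles held as many peaks, with 14.3% for RUNX1 and 16.4% for MyoG, so stretches with such counts were common on the chromosome. The c-Jun ratio fell below 1, to 0.839, against occupied tiles alone, where the other ratios were 1.78 for RUNX1, 1.78 for MyoD and 1.61 for MyoG. Over the stronger 50% of each list the RUNX1 ratio was 2.28, the MyoD ratio 4.70, the c-Jun ratio 2.63 and the MyoG ratio 3.69.

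**Figure D1:**
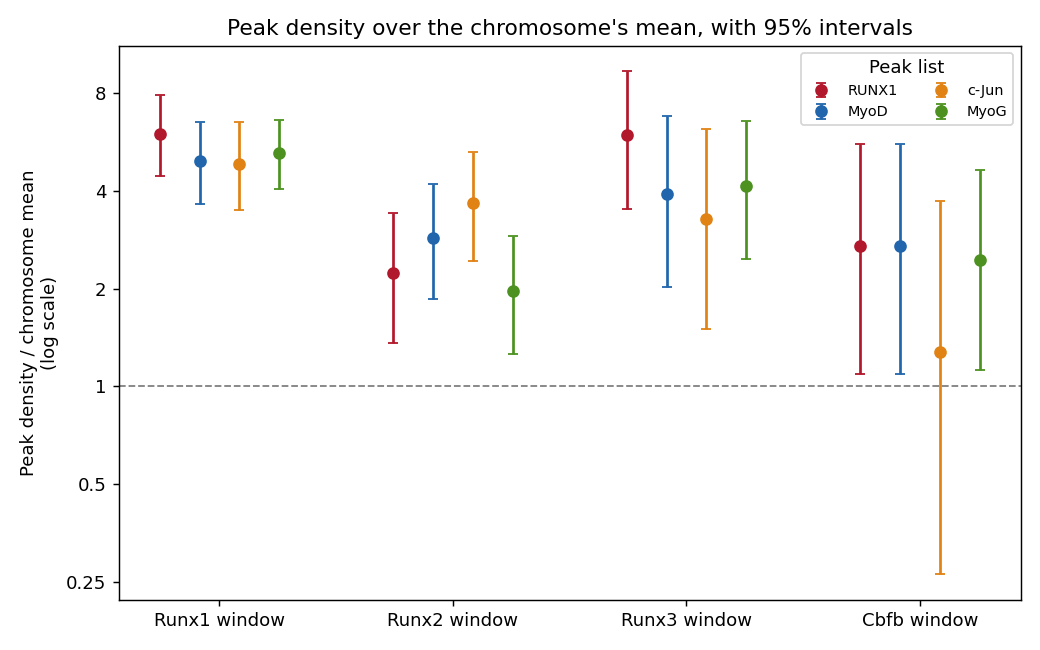
Peak density in each window divided by the mean of its chromosome, on a log scale, for each of the 4 lists. Bars are exact 95% intervals for counting only and the dashed line marks the chromosome's mean. Every interval lies above 1 except that of c-Jun at Cbfb, which runs from 0.263 to 3.72.

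The peaks were then joined into regions wherever peaks of any list overlapped by at least 1 bp. The windows held 89 regions at Runx1, 53 at Runx2, 25 at Runx3 and 12 at Cbfb, of 99548 over chromosomes 1 to 19 and X. All 4 factors were present in 17 of the 89 regions at Runx1 (19.1%, exact 95% interval 11.5% to 28.8%) and in 7 of 25 at Runx3 (28%, 12.1% to 49.4%), against 10.7% of all regions. At Runx2 it was 3 of 53 (5.66%, 1.18% to 15.7%) and at Cbfb 2 of 12 (16.7%, 2.09% to 48.4%). The intervals of Runx2 and Cbfb include the share over all regions, and those of Runx1 and Runx3 lie above it. Among regions that held RUNX1, all 4 were present in 37.0% of 46 at Runx1 (23.2% to 52.5%), 38.9% of 18 at Runx3 (17.3% to 64.3%), 15% of 20 at Runx2 and 28.6% of 7 at Cbfb, against 25.3% of all such regions, and the Runx1 and Runx3 intervals include that share.

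Per length, regions with all 4 factors stood at 30.9 per Mb in the Runx1 window against 3.76 over chromosome 16, a ratio of 8.21 (4.83 to 13.0), and 0 of 178 tiles (0%) held as many. Runx3 had a ratio of 9.10 (3.67 to 18.7), with as many in 9 of 915 tiles (0.984%). The ratios at Cbfb, 3.08 (0.373 to 11.1, 15.6% of tiles), and at Runx2, 1.34 (0.277 to 3.90, 35.8% of tiles), had intervals that include 1. Requiring centres within 150 bp left 11 such regions at Runx1, 5 at Runx3, 3 at Runx2 and 1 at Cbfb. Keeping only the stronger 50% of each list left 12, 3, 3 and 1 in the same order. Both rules can also lower the count elsewhere on the chromosomes, and no ratio under them is given here.

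**Figure D2:**
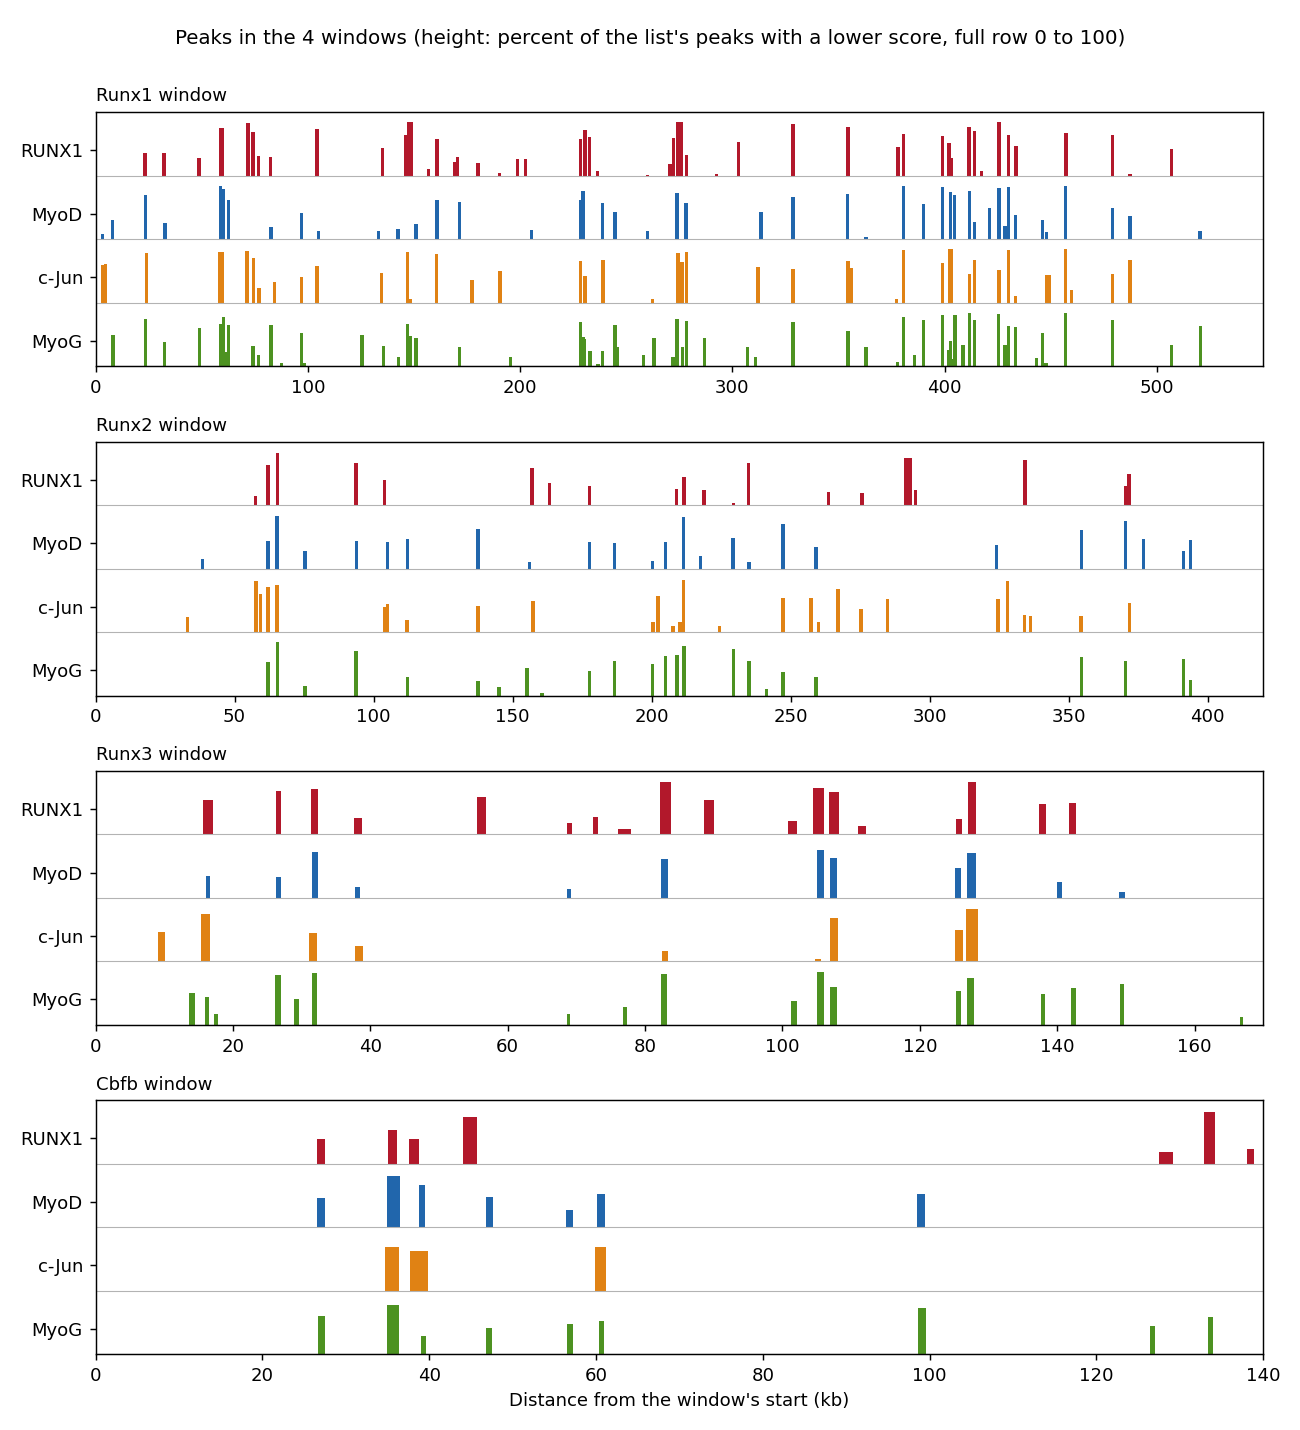
Peaks of the 4 lists in each window, against the distance from the window's start in kb. Bar width is the peak's width, with a minimum so that narrow peaks show, and bar height is the percent of the same list's peaks with a lower score. At Runx1 the rows line up most often between 350 and 500 kb, and at Cbfb the window is empty of all 4 lists for 37.2 kb.

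Within the Runx1 window the shared regions were uneven. The stretch from 350 to 500 kb of the window, chromosome 16 from 92900000 to 93049999, held 11 of the 17 regions with all 4 factors, and 40.7% of its 27 regions held all 4. The other 400 kb held 6, or 9.68% of 62 regions. In the RefSeq table Runx1 is read from the minus strand, so this stretch lies towards the upstream desert side. Its limits were set with the values known. The peak ratios over the chromosome's mean were 7.69 for MyoD, 7.17 for c-Jun, 6.87 for RUNX1 and 6.68 for MyoG in the stretch. In the rest of the window they were 3.89, 3.95, 5.66 and 4.68 in the same order. Since the limits follow the shared regions, the higher ratios in the stretch are a description only, and differences between the factors were not tested.

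The fullest 50 kb of the window, from 92950000 to 92999999, held 6 regions with all 4 factors. Of 52787 such bins of the genome, 7595 held any such region, and 9 (0.017%), this bin among them, held 6 or more. The bin was picked for its count, so its place among the bins is a description only. The 50 kb before it held 3 and the 50 kb after it 2. From 92650000 to 92749999, a stretch also picked with the values known, lay 11 RUNX1, 7 MyoD, 7 c-Jun and 9 MyoG peaks. All 4 factors were present in 0 of 8 regions in its first 50 kb and in 0 of 11 in its second. The share over all regions was 10.7%, and whether so few regions differ from it was not tested.

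At its own gene's locus RUNX1 had 3 peaks with a score of 3100. This value recurs near the top of every list, 364 times among the 42781 RUNX1 peaks, with a few higher scores in each list, so these 3 cannot be ranked among themselves. Scores are the authors' own and are compared here only within a list, as the percent of that list's peaks with a lower score. Of the 48 RUNX1 peaks at the locus, 7 were in the top 10% of the list (14.6%, 6.07% to 27.8%, against 10% of all RUNX1 peaks), and the median score of the 48 was 232 against 177 over the list.

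The first of the 3, from 92696550 to 92699395, lay in a region with c-Jun (score 1377) and MyoG (583.5) and without MyoD. It was 2846 bp wide, against a median of 944 bp over the list. Next to it, on the side of lower coordinates, was the highest RUNX1 peak of the window that met no other list, from 92695473 to 92696348 with a score of 470.9.

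The second, from 92823186 to 92826753 and 3568 bp wide, lay in a region with MyoD (878.9), c-Jun (1134) and MyoG (1008). The third, from 92975043 to 92975984, was 942 bp wide and lay in the upstream stretch with MyoD (1993), MyoG (2405) and a weaker c-Jun peak (236). The first and the second of these peaks had centres 127 kb apart, and the third lay 150.5 kb from the second and 277.5 kb from the first. In GRCm38 the 2 annotated starts of Runx1 are 128.7 kb apart. Whether the first and the second peak cover these starts was not tested.

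The other lists had peaks with the same score at Runx1, partly at shared places. MyoD reached 3100 from 92608040 to 92609512 and from 93006380 to 93007526. c-Jun did so from 92951337 to 92953818 and from 93006063 to 93007766, and MyoG from 92960874 to 92962189. The region from 93006063 to 93007766 thus held both MyoD and c-Jun at 3100, with MyoG at 2710 and RUNX1 at 546.4. All 4 regions with these peaks held all 4 factors.

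Of the 17 regions with all 4 factors at Runx1, the 5 whose weakest member ranked highest were these. In the region from 92607844 to 92610745 the weakest member was RUNX1, whose score of 911.7 was above 88.7% of its list, beside MyoD at 3100, c-Jun at 1298 and MyoG at 1290. The region of the second of the RUNX1 peaks at 3100, from 92823186 to 92826959, followed with 86.3% for MyoD. The region from 93006063 to 93007766 had RUNX1 as its weakest member at 79.5%, and the region from 92777933 to 92781024 had c-Jun at 77.6%. The last, from 92929954 to 92931225, combined strong MyoD (2974) and c-Jun (2209) peaks with MyoG at 1188 and RUNX1 at 482.2, above 76.7% of its list.

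The median rank over the 17 regions was above 88.2% of the list for MyoD, 85.5% for MyoG, 79.7% for c-Jun and 79.5% for RUNX1. These ranks use the highest peak of each list in regions picked for holding all 4, which can raise them. The same medians over all such regions of the genome are not given here, so the ranks are not shown to be particular to Runx1. A factor with a score of 3100 did not always have the others near the top of their lists. RUNX1 was at 3100 from 92974921 to 92976144, where c-Jun stood above 60.1% of its list. c-Jun was at 3100 from 92951337 to 92953818, where RUNX1 stood above 60.3%. The weakest member of any of the 17 was c-Jun from 92982906 to 92984141, with a score of 62.93, above 11.9% of its list. The centres of the strongest peaks of the 4 lists spanned a median of 171 bp within a region, also without a value over all such regions.

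**Figure D3:**
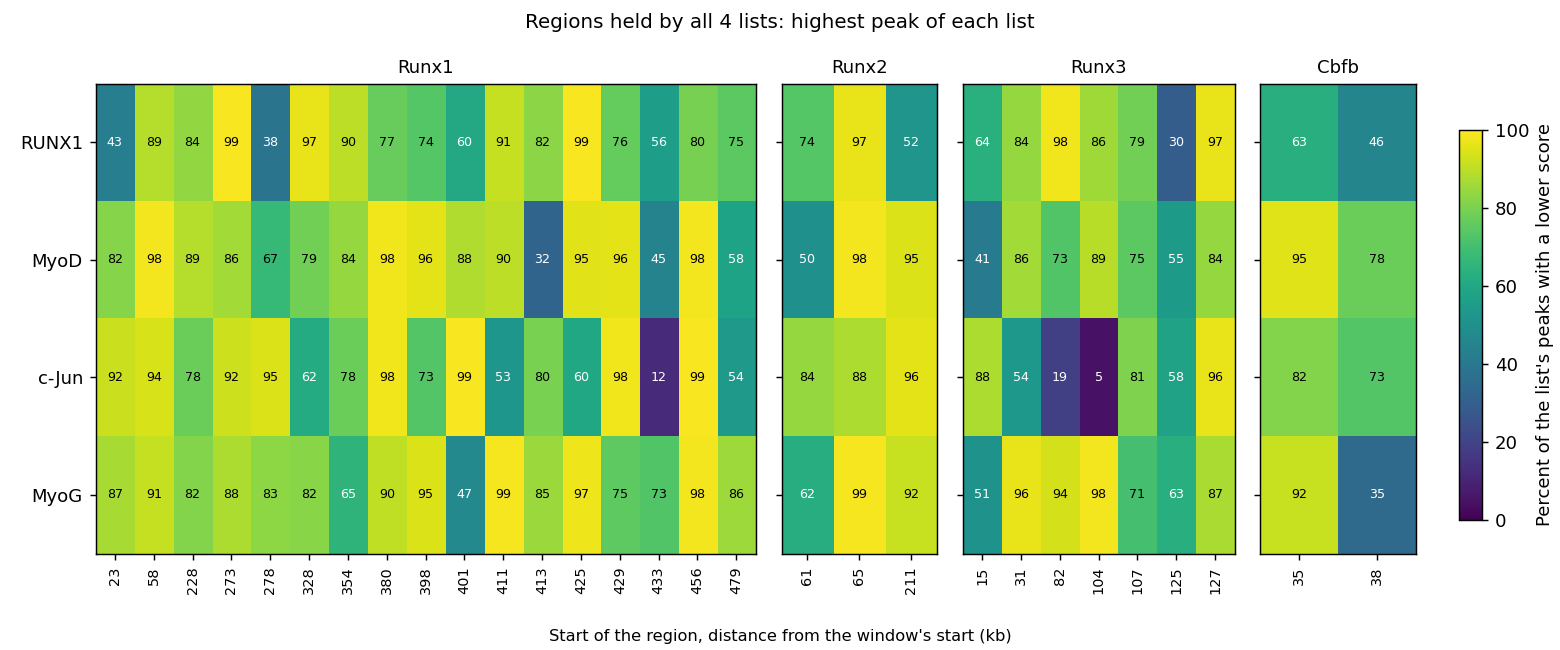
Each column is a region that held all 4 factors, placed by its distance from the window's start in kb, and each cell gives the percent of the list's peaks with a lower score than the region's highest peak of that list. Runx1 has 17 columns, Runx2 3, Runx3 7 and Cbfb 2, and the lowest cell is c-Jun at Runx3, with 4.89%.

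At the Runx2 locus MyoD, MyoG and RUNX1 had their highest scores in the same region. From 44644648 to 44645986 it held MyoD and MyoG at 3100, RUNX1 at 1848 (the highest RUNX1 score of the window) and c-Jun at 798.9, a score that 3 other c-Jun peaks of the window exceeded. Each was above 87.5% or more of its list, and the centres lay within 84 bp. The second region with all 4 factors, from 44790799 to 44792148, had the window's highest c-Jun score, 1618, beside MyoD at 1874 and MyoG at 1315, but RUNX1 only at 189.1, above 52% of its list. In the third, from 44641302 to 44642619, RUNX1 was at 419.5, MyoD at 178.1, c-Jun at 660.4 and MyoG at 299.2.

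Regions with c-Jun alone were the most frequent kind at Runx2. Of the 53 regions, 12 held c-Jun alone (22.6%, 12.3% to 36.2%), against 14.3% of all regions, and 6 held RUNX1 and c-Jun without MyoD or MyoG (11.3%, 4.27% to 23.0%), against 5.20%. Both intervals include the share over all regions. The strongest c-Jun peak alone was from 44907353 to 44908676 with a score of 1521, above 95.4% of its list. A RUNX1 peak met 9 of the 28 c-Jun peaks (32.1%, 15.9% to 52.4%), against 46.8% of all c-Jun peaks. The highest RUNX1 peak with no other list at Runx2, from 44870881 to 44873757, had a score of 793.3, above 86.5% of its list, and was 2877 bp wide. The median RUNX1 score at Runx2, 149.9, lay below the list's median of 177, and 1 of its 20 RUNX1 peaks was in the top 10%.

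At the Runx3 locus RUNX1 was present in most regions. It was in 18 of 25 (72%), against 42.1% of all regions, 51.7% at Runx1, 37.7% at Runx2 and 58.3% at Cbfb. MyoG was in 18 of 25 as well (72%), against 59.5% of all regions. Of the 12 MyoD peaks 10 met RUNX1 (83.3%, 51.6% to 97.9%, against 42.5% of all MyoD peaks), and of the 9 c-Jun peaks 8 did (88.9%, 51.8% to 99.7%, against 46.8%). Over the stronger 50% of each list the latter was 4 of 6, with an interval (22.3% to 95.7%) that includes the 38.8% of the list. This left 2 MyoD peaks and 1 c-Jun peak at Runx3 that no RUNX1 peak met. MyoD met the same share of the c-Jun peaks, 8 of 9, against 44% of all c-Jun peaks, and 25 of 42 at Runx1 (59.5%, 43.3% to 74.4%). With an overlap of at least 50% of the shorter peak it again met 8 of 9 at Runx3, against 41.8%. With centres within 150 bp it met 4 of 9 (13.7% to 78.8%, against 26.5%). Over the stronger 50% it met 4 of 6 (22.3% to 95.7%, against 38.6%), and these last intervals include the share of the list.

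The highest RUNX1 score at Runx3, 2233, was from 134702254 to 134703786, with MyoD at 425.7, MyoG at 1537 and c-Jun at 74.19. The highest MyoD (1097) and MyoG (2715) scores were in the region from 134724434 to 134726086, where RUNX1 was at 759.9 and c-Jun at 54.76. c-Jun was thus near the bottom of its list in both, above 19.1% and 4.89% of it. It had its highest score, 1761, from 134746716 to 134748528, the region whose weakest member ranked highest, with RUNX1 at 1856, MyoD at 760.3 and MyoG at 975.7. The next 4 by that rule were from 134726778 to 134728291, 134651125 to 134652368, 134635292 to 134637056 and 134745123 to 134746315, with RUNX1 scores of 524.8, 690.6, 281.7 and 97.95. The highest RUNX1 peak alone, from 134675564 to 134676899, had a score of 351. Of the 12 MyoD peaks at Runx3, 0 were in the top 10% of the list (exact interval up to 26.5%, against 10% of all MyoD peaks), and 4 of the 18 MyoG peaks were (22.2%, 6.41% to 47.6%).

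In the window of Cbfb, the gene of the RUNX partner, the strongest RUNX1 peaks stood apart from MyoD and c-Jun, but can lie in or near neighbouring genes. The highest, from 107782859 to 107784248 with a score of 1601 (above 95.3% of the list), met only a MyoG peak with a score of 407.5. The next, from 107694079 to 107695795 with a score of 766.5 (above 85.9%), met no other list. The other 5 RUNX1 peaks had scores from 79.93 to 277.4. The 3 RUNX1 peaks in regions with MyoD had scores of 154.6, 159.1 and 277.4, with a median of 159.1. The 4 with neither MyoD nor c-Jun held both the lowest and the highest score, with a median of 430.5.

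MyoD, c-Jun and MyoG had their highest Cbfb scores together, from 107684725 to 107686504, with MyoD at 1896, c-Jun at 572.4, MyoG at 1330 and RUNX1 at 277.4. In the second region with all 4 factors, from 107687537 to 107689872, RUNX1 was at 154.6, MyoD at 536.7, c-Jun at 394.2 and MyoG at 117.1, and the 4 peaks did not share a common base. All 7 MyoD peaks at Cbfb met a MyoG peak (59.0% to 100%), against 77.1% of all MyoD peaks, a share that the interval includes. Over the stronger 50% of each list it was 4 of 6 (66.7%), against 74.3%.

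At the Runx genes, RUNX1 peaks in regions with MyoD or c-Jun had the higher median scores, as in the whole RUNX1 list, where the median was 231 over 27395 such peaks and 117.6 over the 15386 with neither. At Runx1 the 33 such peaks ran from 51.15 to 3100 with a median of 420.3, and the 15 with neither from 53.59 to 470.9 with a median of 101.1. At Runx3 the median was 540.2 over 10 peaks, against 159.7 over 8, and at Runx2 205.6 over 14, against 95.7 over 6. The ranges overlap at each locus, and whether the loci differ from the list or from Cbfb, with its 7 peaks, was not tested.

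The RUNX1 peaks of each locus were also counted by which other lists they met. A MyoD peak met 26 of 48 RUNX1 peaks at Runx1 (54.2%, 39.2% to 68.6%), 8 of 20 at Runx2 (40%), 10 of 18 at Runx3 (55.6%) and 3 of 7 at Cbfb (42.9%), against 44.3% of all RUNX1 peaks. For c-Jun it was 29 of 48 (60.4%, 45.3% to 74.2%), 9 of 20 (45%), 8 of 18 (44.4%) and 2 of 7 (28.6%), against 46.8%. For MyoG of myotubes it was 31 of 48 (64.6%, 49.5% to 77.8%), 9 of 20 (45%), 13 of 18 (72.2%) and 3 of 7 (42.9%), against 57.9%. With the overlap of at least 1 bp, all 12 intervals include the share over the whole list. For c-Jun at Runx1 this did not hold under other rules. With an overlap of at least 50% of the shorter peak, c-Jun again met 29 of 48 RUNX1 peaks there, and the share over all RUNX1 peaks was 44.7%, below the interval. Over the stronger 50% of each list it met 20 of 28 (71.4%, 51.3% to 86.8%), against 38.6%. With centres within 150 bp, the Runx1 shares were 27.1% for MyoD, 35.4% for c-Jun and 43.8% for MyoG, against 25%, 24.6% and 36% of all RUNX1 peaks.

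**Figure D4:**
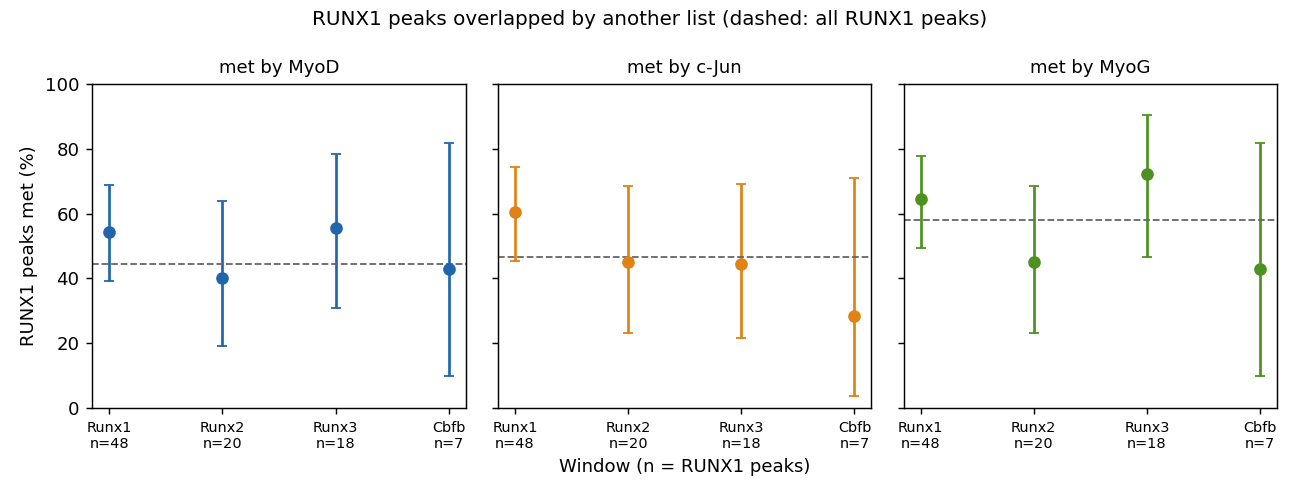
Percent of the RUNX1 peaks of each window that were overlapped by at least 1 bp by a MyoD, c-Jun or MyoG peak, with exact 95% intervals for counting and the number of RUNX1 peaks under each window. The dashed lines are the shares over all RUNX1 peaks (44.3%, 46.8% and 57.9%), and with this overlap every interval includes its line.

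In the other direction, c-Jun peaks at the Runx1 locus met RUNX1 more often than in the whole list, in 30 of 42 (71.4%, 55.4% to 84.3%) against 46.8%, and MyoG more often, in 27 of 42 (64.3%, 48.0% to 78.5%) against 45.1%. The share met by RUNX1 lay above that of the list under the other 3 rules as well, from 40.5% against 25% with centres within 150 bp to 71.4% against 45.2% with an overlap of at least 50% of the shorter peak. The share met by MyoG had an interval that includes that of the list with centres within 150 bp (38.1%, against 26.9%) and over the stronger 50% (50%, against 37.2%). The median score of the c-Jun peaks at Runx1 was 335, against 171 over the list, and 11 of 42 were in the top 10% (26.2%, 13.9% to 42.0%, against 10% of all c-Jun peaks). For MyoD the share in the top 10% was 17.02% (8 of 47, 7.65% to 30.8%) and for MyoG 10.6% (7 of 66, 4.37% to 20.6%), with intervals that include the 10% of each list. Whether the higher scores and the higher overlap go together was not tested.

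MyoG peaks of myotubes covered sites that MyoD had in myoblasts and others besides, as they did over the whole lists. Of the regions with MyoG, 24 of 59 at Runx1 (40.7%), 5 of 24 at Runx2 (20.8%), 8 of 18 at Runx3 (44.4%) and 2 of 9 at Cbfb (22.2%) had no MyoD, against 42% of all regions with MyoG. The lower shares at Runx2 and Cbfb rest on few regions, and whether they differ from that of all regions was not tested. MyoD peaks met MyoG in 37 of 47 at Runx1 (78.7%), 19 of 25 at Runx2 (76%) and 10 of 12 at Runx3 (83.3%), against 77.1% of the list. Conversely, 19 of the 24 MyoG peaks at Runx2 met MyoD (79.2%, 57.9% to 92.9%), against 57.7% of all MyoG peaks, but 8 of 14 over the stronger 50% (57.1%, against 55.4%). In overlapping pairs the centres of MyoD and MyoG lay a median of 45.5 bp apart at Runx1, 45.5 bp at Runx2, 67.25 bp at Runx3 and 70.5 bp at Cbfb, and 55.5 bp over the whole lists. RUNX1 and MyoD centres lay 171.5 bp apart at Runx1, 71.5 bp at Runx2, 95.5 bp at Runx3 and 145.5 bp at Cbfb, and 132 bp over the whole lists.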

How the data were processed

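ChIP-seq peaks of RUNX1, MyoD and c-Jun (myoblasts) and MyoG (myotubes) were used. The deposited BED lists give a position and a score per peak. The peak names begin with MACS, and CASAVA 1.7.0 and 1.8.2, Bowtie and the build mm9 are named in the submitters' processing notes. The MACS version and settings, what the score means, its control and whether replicates were pooled are points not given in the sources used here. Read depth is unknown. Chromosome lengths came from GenomeInfoDb 1.38.1. Chromosomes 1 to 19 and X were used. Overlap was at least 1 bp, and shares have exact Clopper-Pearson 95% intervals. Members, windows and named peaks were chosen with earlier results of these data known. Named peaks were the highest of each list per locus, the highest RUNX1 peak alone, and up to 5 regions with all 4 lists, by their weakest member. The strongest c-Jun peak alone at Runx2 and the other regions named were chosen after their values were seen. No test was run, since each factor had 1 list. The overlap functions were tested on simulated data. Scripts ran in Python 3.11.15 with matplotlib 3.10.9, scipy 1.17.1, pandas 2.3.3 and numpy 2.4.6. Alternatives were the stronger 50% of each list, centres in the window, covered bases, occupied 100 kb tiles, windows 20 kb narrower or wider, an overlap of 50% of the shorter peak, centres within 150 bp, and, added after seeing the data, a base common to all 4 lists. The pathway list needed an annotation of mm9 and was not analysed here.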

Additional observations from a re-analysis of the deposited data

How the results depend on the processing

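Of 96 alternative density ratios, 91 lay inside the counting interval of the reported value and 95 were above 1. The exception to the latter was c-Jun at Cbfb, at 0.839 against occupied tiles. The 5 outside their interval were all at Runx1, at 4.07 for RUNX1, 3.34 for MyoD, 3.28 for c-Jun and 3.55 for MyoG against occupied tiles, a reference that is shorter by construction, and at 7.5 for c-Jun over the stronger 50% of each list. Intervals are wider where peaks are few, so lying inside is no measure of stability and does not rank the loci. At Runx3 the RUNX1 ratio against occupied tiles, 3.85 instead of 5.93, stayed inside its wide interval (3.52 to 9.35). Of 24 alternative counts of regions with all 4 lists, 19 were within 1.5 times. The others were 11 at Runx1 and 1 at Cbfb with centres within 150 bp, 3 at Runx3 and 1 at Cbfb over the stronger 50% of each list, and 1 at Cbfb with a common base. The 48 alternative shares were those of RUNX1 peaks met by each other list and of MyoD peaks met by MyoG. Shares of c-Jun or MyoG peaks, and of MyoD peaks met by RUNX1 or c-Jun, were not among them. Of the 48, 44 stayed inside the interval of the reported share, and 3 of the other 4 came from the rule on centres at Runx1 (27.1%, 35.4% and 43.8%). The last was the share of MyoD peaks met by MyoG at Runx3, 100% over the stronger 50%. No paired analysis was possible because each factor has a single list, and for that reason no replicate was left out. Depth is unknown, so a site without a peak may still be bound.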
